A study of Mus musculus with 1104 samples.

Results

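Hypoxia and glycolysis genes are described here as 10 rows, Pgam1, Ak4, P4ha1, Ldha, Pgk1, Aldoa, Vegfa, Bnip3, Egln3 and Pfkfb3, of the 20646 gene symbols in the count tables of a time course of high-fat feeding. The genes were listed by name and chosen by their log2 CPM changes from 0 days over all time points and organs. Pgam1, Ak4 and P4ha1 were included because they were higher at 12 weeks in many organs. Changes from 0 days in these genes are therefore given as a description, with no test. Male wild-type C57BL/6 mice were fed a high-fat diet (D12492, 60 kcal% fat) from 8 weeks of age. Each organ was taken from 6 mice per time point, and the labels do not say whether organs share mice. Time points were 0 days (the onset of the diet), 1 day, 3 days, 1 week, 10 days, and 2, 3, 4, 5, 6, 7, 8, 10 and 12 weeks. RNA was sequenced from 13 organs: brown fat (BAT), inguinal white fat (iWAT), epididymal white fat (eWAT), gastrocnemius and soleus muscle, liver, pancreas, small intestine, pituitary, hypothalamus, hippocampus, neocortex and olfactory bulb. Only eWAT was also taken at 16 and 20 weeks, which gives 1104 libraries in 184 groups. No group of the same age kept off the diet was analysed here, so time on the diet and age cannot be told apart. The organs are mixtures of cells, and in such samples fewer cells of a type and less RNA per cell cannot be told apart.

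When oxygen is low, the prolyl hydroxylases that mark hypoxia-inducible factor (HIF) alpha subunits for destruction slow down, and the stabilised factor pairs with ARNT and binds short DNA motifs with the core RCGTG. Its classical targets raise glucose use without oxygen, blood vessel growth and the removal of mitochondria. Muscle and brain also run glycolysis at high rates with oxygen present, so the same genes mark the fuel use of a tissue. Of the 10 genes, Aldoa (aldolase A), Pgk1 (phosphoglycerate kinase), Pgam1 (phosphoglycerate mutase) and Ldha (the A subunit of lactate dehydrogenase) encode enzymes of glycolysis and lactate production, and Pfkfb3 makes fructose 2,6-bisphosphate, an activator of phosphofructokinase. Egln3 encodes a prolyl hydroxylase of the oxygen sensor itself and Vegfa the main growth factor for blood vessels. Bnip3 encodes a receptor for mitophagy on the mitochondrial surface, P4ha1 a catalytic subunit of the collagen prolyl 4-hydroxylase, and Ak4 an adenylate kinase of the mitochondrial matrix.

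All 10 genes had promoter windows in the RefSeq table for GRCm38.p6 (250 bases before to 50 bases after a start site), 18 windows in all. The HIF core was searched as ACGTG and GCGTG on both strands, so that a CACGTG palindrome counts on each strand. At least 1 of the 2 motifs was present in 16 of the 18 windows (88.9%), against 43.8% of all 32851 promoter windows. Each of the 10 genes had at least 1 window with a match. Windows of a gene can overlap and hold the same match, as those of Ak4 that start at 101419039, 101419062 and 101419071. The 18 windows are therefore not separate. The median GC content was 65.7% in the windows of the 10 genes and 52.7% in all windows, and the share was not compared at equal GC content. A window of Aldoa and a window of Vegfa held no match. For 4 genes that recur in the results below a window is shown, for Ldha the first of its 2, with matches on either strand in capitals.

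Ldha, chr7:46845554-46845853, plus strand: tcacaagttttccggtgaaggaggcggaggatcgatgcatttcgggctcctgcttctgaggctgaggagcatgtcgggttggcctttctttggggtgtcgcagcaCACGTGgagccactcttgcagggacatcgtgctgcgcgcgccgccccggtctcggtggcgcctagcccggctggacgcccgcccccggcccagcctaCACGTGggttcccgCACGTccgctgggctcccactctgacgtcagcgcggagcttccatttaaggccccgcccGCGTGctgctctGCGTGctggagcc
Pgk1, chrX:106186850-106187149, plus strand: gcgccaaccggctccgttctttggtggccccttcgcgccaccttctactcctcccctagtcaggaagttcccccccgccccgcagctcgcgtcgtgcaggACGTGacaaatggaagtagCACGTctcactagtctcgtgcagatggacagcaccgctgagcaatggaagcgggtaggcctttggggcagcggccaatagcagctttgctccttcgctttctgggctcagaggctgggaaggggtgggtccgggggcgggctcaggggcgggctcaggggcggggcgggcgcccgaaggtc
Pgam1, chr19:41911621-41911920, plus strand: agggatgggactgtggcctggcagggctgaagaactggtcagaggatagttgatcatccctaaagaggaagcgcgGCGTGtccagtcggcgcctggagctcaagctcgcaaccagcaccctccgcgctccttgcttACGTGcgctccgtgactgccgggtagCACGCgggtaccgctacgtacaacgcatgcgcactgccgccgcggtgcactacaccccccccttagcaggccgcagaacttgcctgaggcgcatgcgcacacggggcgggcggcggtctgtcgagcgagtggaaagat
P4ha1, chr10:59323046-59323345, plus strand: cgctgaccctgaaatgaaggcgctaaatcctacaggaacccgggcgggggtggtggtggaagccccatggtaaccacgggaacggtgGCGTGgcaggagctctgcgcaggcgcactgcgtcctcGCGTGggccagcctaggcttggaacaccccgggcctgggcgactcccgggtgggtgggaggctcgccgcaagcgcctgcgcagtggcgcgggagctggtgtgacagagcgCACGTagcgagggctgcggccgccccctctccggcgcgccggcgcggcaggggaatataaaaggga

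The Ldha window shown held ACGTG 5 times and GCGTG 2 times, the highest number of matches among these 4, and the second window of Ldha held ACGTG 0 times and GCGTG 2 times. The Pgk1 window held ACGTG 2 times and no GCGTG, while those of Pgam1 and P4ha1 each held ACGTG 1 time and GCGTG 2 times. A match describes the letters and is not a binding site. Aldoa lies on the minus strand of chromosome 7 (126795234 to 126800751, GRCm38, GENCODE M21) and overlaps Fam57b on the other strand, so reads of the pair could be shared if the counting ignored strand, which is not given in the sources used here. Aldoart1, Aldoart2, Ldhal6b and Bnip3l, which resemble members by name, are separate rows of the table.

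Library totals ran from 7670532 to 27036098 counts with a median of 13464321, so that 1 CPM, the unit of levels scaled for library size, was about 13.5 counts in the median library. Every gene passed the filter on low counts in all 13 organs except Egln3, which did not pass in pancreas, which leaves 129 of 130 gene and organ pairs. In 27 libraries of 6 organs, 14 of them soleus, the TMM normalisation factor was under 0.75, and results that touch these organs were repeated without them. The labelled organs held their defining markers: 32 of 40 markers had their highest mean at 0 days in the organ they mark, and all 40 ranked in the first 3. The lowest was Agrp, at 1.4 to 3.63 CPM in hypothalamus, which ranked after soleus. RNA of fast muscle fibres was also present in fat: the sum of 10 fast fibre genes ran from 9.8 to 29574 CPM in iWAT at 0 days, and was 27837 CPM in 1 eWAT library at 3 days, where the median of the 6 was 5.78 CPM.

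Before the diet, each gene had its own order over the organs. Levels across organs are in CPM on a scale common to the 78 libraries at 0 days, as mean ± SD (n = 6), and are a description. Aldoa, the aldolase of muscle and brain, was at 22630 ± 1726 CPM in gastrocnemius and 13570 ± 8335 CPM in soleus, whose values overlapped, and at 152 ± 10.7 CPM in liver, the lowest organ. Ldha was also highest in gastrocnemius, at 3424 ± 130 CPM, apart from soleus at 1584 ± 580 CPM, and lowest in pituitary at 44.7 ± 1.69 CPM. Pgk1 was at 1137 ± 94.2 CPM in gastrocnemius, followed by BAT at 710 ± 82.4 CPM, which overlapped soleus. Pgam1 ran the other way, since it was lowest in muscle, at 11.4 ± 1.8 CPM in gastrocnemius, and highest in BAT at 472 ± 60.3 CPM. The hypothalamus, hippocampus, neocortex and olfactory bulb followed BAT for Pgam1, between 188 ± 3.99 and 166 ± 2.67 CPM, with each overlapping the next.

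Pfkfb3 was highest in BAT at 1193 ± 138 CPM, apart from gastrocnemius (535 ± 268 CPM), eWAT (427 ± 51.5 CPM) and iWAT (424 ± 121 CPM), which overlapped. Soleus, at 15.7 ± 8.07 CPM, was among the lowest organs for this gene. Vegfa was highest in BAT too, at 544 ± 55.5 CPM, and lowest in the brain regions and pituitary, between 70.7 ± 2.74 CPM in olfactory bulb and 52 ± 4.03 CPM in hippocampus. Egln3 was at 182 ± 23.7 CPM in soleus, apart from gastrocnemius at 58.7 ± 11.2 CPM, and at 3.87 ± 0.428 CPM in eWAT. Bnip3 was at 887 ± 305 CPM in soleus, 505 ± 65.5 CPM in eWAT and 502 ± 59.7 CPM in BAT, with overlaps between neighbours, and at 20.7 ± 3.37 CPM in small intestine. With library totals in place of TMM factors, eWAT and not soleus was highest for Bnip3. Ak4 was highest in liver at 159 ± 18.7 CPM, apart from hippocampus at 49.3 ± 4.06 CPM, and was 385-fold lower in small intestine at 0.413 ± 0.269 CPM. P4ha1 varied least after Vegfa, with pituitary at 87.6 ± 3.34 CPM and small intestine at 6.91 ± 1.35 CPM.

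**Figure D1:**
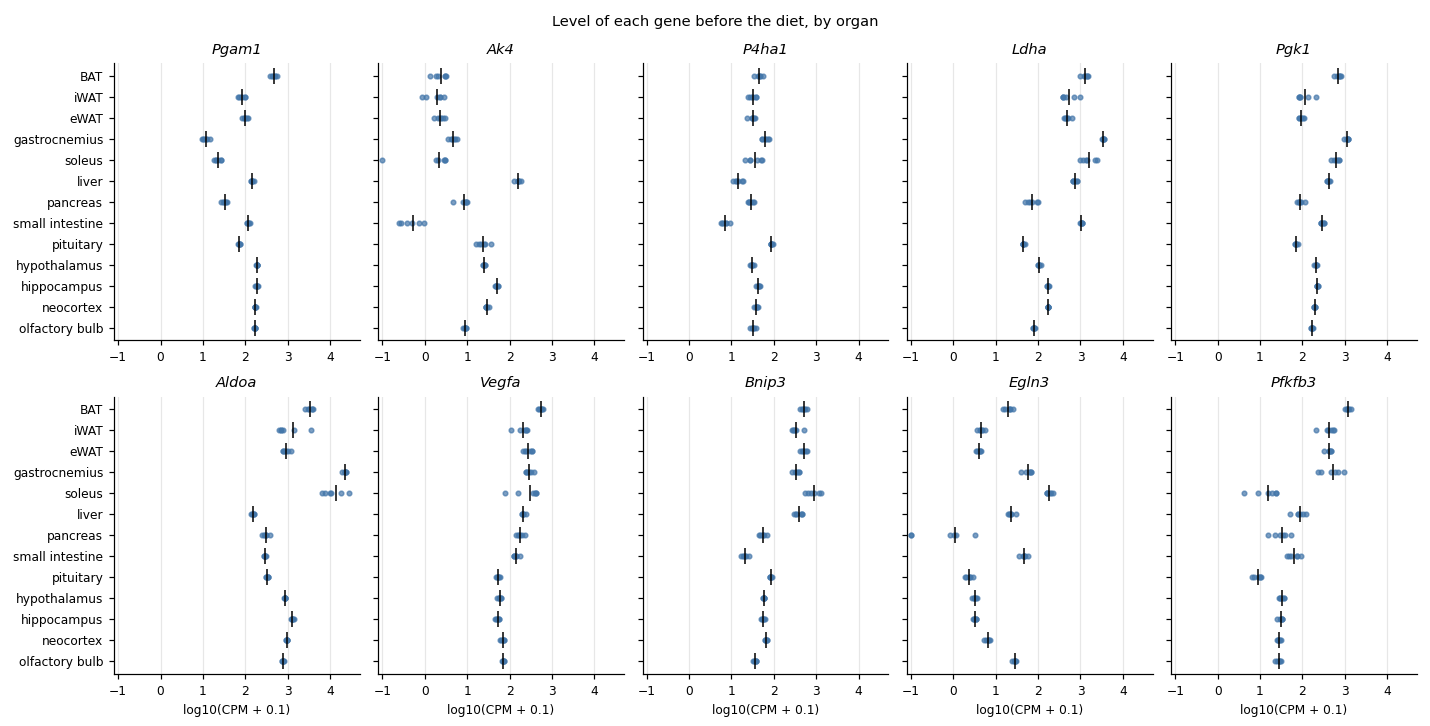
Level of the 10 genes in 13 organs before the diet, as log10(CPM + 0.1), with a point per library (6 per organ) and a bar at the mean. Aldoa, Ldha and Pgk1 are highest in gastrocnemius, Pgam1, Vegfa and Pfkfb3 in BAT, Bnip3 and Egln3 in soleus, Ak4 in liver and P4ha1 in pituitary.

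The 2 muscles, the mostly fast gastrocnemius and the slow soleus, were compared before the diet, a contrast the choice of genes did not use. By edgeR's quasi-likelihood test with Benjamini-Hochberg adjustment over all genes, 5 of 10 members were higher in gastrocnemius (background 17.9% of genes tested) and 3 were lower (background 23.2%). The largest difference was in Pfkfb3, with 239, 521 and 954 CPM as lowest, median and highest in gastrocnemius, against 3.99, 16.9 and 24.2 CPM in soleus. All 6 gastrocnemius libraries lay above all 6 of soleus, and the difference was 5.08 ± 0.48 on the log2 scale (SE, adjusted p = 8.5e-06). Ldha had 3219, 3412 and 3603 CPM in gastrocnemius, against 967, 1382 and 2394 CPM in soleus (log2 difference 1.03 ± 0.29, adjusted p = 0.014). Pgk1 (0.80 ± 0.2), P4ha1 (0.79 ± 0.21) and Ak4 (1.07 ± 0.34, adjusted p = 0.024) were also higher in gastrocnemius. Without the soleus library whose TMM factor was under 0.75, 6 members were higher and 3 lower.

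The genes lower in gastrocnemius were Egln3, Bnip3 and Pgam1. Egln3 had 39.1, 62.6 and 69.5 CPM in gastrocnemius, against 161, 177 and 219 CPM in soleus, with no overlap (log2 difference -1.69 ± 0.19, adjusted p = 2.9e-05). Bnip3 differed by -1.46 ± 0.28 (adjusted p = 0.0019) and Pgam1 by -1.03 ± 0.18 (adjusted p = 8.3e-04). Aldoa (0.62 ± 0.4, adjusted p = 0.22) and Vegfa (-0.07 ± 0.32, adjusted p = 0.88) did not pass the test. Of the glycolytic enzymes outside the 10, Slc16a3, the lactate exporter of fast fibres, was higher in gastrocnemius by 2.69 ± 0.2 (adjusted p = 1.5e-06), and Ldhb, the lactate dehydrogenase subunit of oxidative tissue, was lower by -2.96 ± 0.26 (adjusted p = 4.2e-06). The sum of 8 slow fibre genes was 926 to 1479 CPM in gastrocnemius and 23965 to 78745 CPM in soleus.

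In fat, 9 of 10 members were higher in BAT than in iWAT before the diet (background 34.2% higher), and 0 were lower (background 37.8%). By DESeq2, which gave no adjusted p for Aldoa, 8 were higher and 0 lower, and 0 were lower by edgeR at an unadjusted p under 0.05. Pgk1 had 567, 726 and 801 CPM in BAT, against 81.5, 87.9 and 214 CPM in iWAT, without overlap (log2 difference 2.62 ± 0.25, edgeR adjusted p = 4.3e-07). Pgam1 had 385, 477 and 548 CPM in BAT, against 66.2, 80.6 and 97.8 CPM in iWAT (2.53 ± 0.14, adjusted p = 2.7e-09). Egln3 (2.15 ± 0.16), Pfkfb3 (1.5 ± 0.19) and Vegfa (1.41 ± 0.18) were also higher, while Ak4 differed by 0.38 ± 0.32 and did not pass (adjusted p = 0.3). For Aldoa (1.35 ± 0.41, adjusted p = 0.0088) the iWAT libraries ran from 615 to 3615 CPM, and the fast fibre sum ran from 1.75 to 2828 CPM in BAT and from 9.8 to 29574 CPM in iWAT. With the muscle genes as a covariate, 9 members were again higher in BAT. The sum of the 12 macrophage genes was 142 to 394 CPM in BAT and 1670 to 4018 CPM in iWAT at 0 days, each on its organ's own scale, and its part in these differences was not tested.

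**Figure D2:**
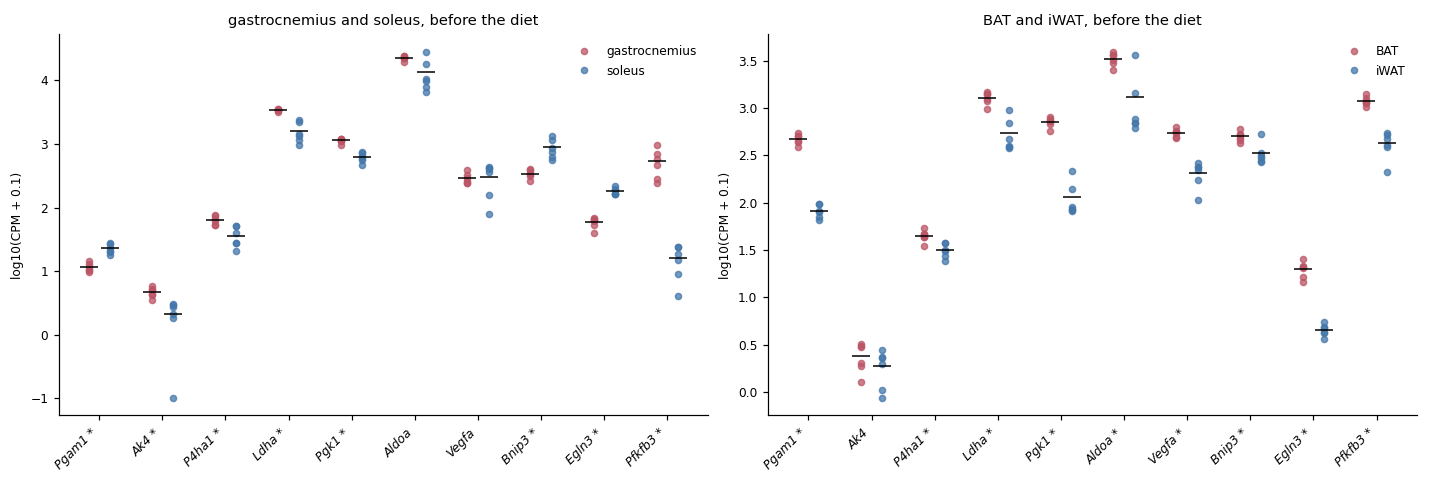
Per-library levels of the 10 genes before the diet as log10(CPM + 0.1), in gastrocnemius and soleus on the left and in BAT and iWAT on the right, with 6 libraries per organ and a bar at the mean. A star marks an adjusted p under 0.05, which holds for 8 genes between the muscles and for 9 between the fat depots.

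At 12 weeks against 0 days, 85 of the 129 gene and organ pairs had a positive log2 change and 44 a negative one. All 6 libraries at 12 weeks lay above all 6 at 0 days in 32 pairs and below them in 8. Over all genes tested in the 13 organs these shares were 9.03% above and 8.09% below, and since the choice of genes used this contrast nothing is read from the difference. Levels within an organ are in CPM on that organ's own scale. Pgam1 and P4ha1 had positive changes in 13 of 13 organs, with medians of 0.16 and 0.36, and Ak4 in 10 of 13 with a median of 0.32.

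Ak4 had the largest positive changes. In soleus it had 5.01, 6.36 and 7.21 CPM at 12 weeks, against 0, 1.39 and 1.74 CPM at 0 days, a log2 change of 2.21 ± 0.3 (SE) with no overlap. The library at 0 CPM was one of those with a TMM factor under 0.75, and without such libraries the change was 2.09 ± 0.221. In BAT it had 5.48, 7.73 and 12.2 CPM at 12 weeks, against 1.06, 2.11 and 2.66 CPM at 0 days (2.01 ± 0.33). The course differed between these organs: in BAT the change was already 3.20 at 1 week and every group from 3 days on lay above 0 days, while in soleus the changes up to 10 days were within 0.33 and the largest was 2.36 at 10 weeks. Ak4 also had changes of 1.35 ± 0.22 in pancreas, where 3.82, 6.11 and 9.67 CPM at 12 weeks lay above 1.41, 2.74 and 3.05 CPM at 0 days, and of 1.48 ± 0.39 in small intestine, where the 6 libraries at 0 days held 44 counts in all. In hippocampus, at a higher level, the change was 0.43 ± 0.06, with 84.6, 91.5 and 99.5 CPM at 12 weeks against 61.8, 66.5 and 74.3 CPM at 0 days.

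P4ha1 was higher in BAT from the first day of the diet. It had 79.4, 89.8 and 109 CPM at 12 weeks, against 30, 39.6 and 46.4 CPM at 0 days (1.24 ± 0.21), and each of the 13 later groups in BAT lay above 0 days without overlap. In eWAT the change was gradual, 0.10 at 1 day, 0.52 at 4 weeks and 0.77 ± 0.11 at 12 weeks, with 56.9, 68.1 and 73 CPM at 12 weeks against 30.5, 39.1 and 46.1 CPM at 0 days. In small intestine P4ha1 had 10.1, 13.2 and 14.4 CPM at 12 weeks, against 5.81, 7.24 and 9.83 CPM at 0 days (0.80 ± 0.14). In liver the change was 0.47 ± 0.13 and the groups overlapped.

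The glycolytic enzymes changed by smaller amounts. Ldha in liver had 755, 785 and 854 CPM at 12 weeks, against 453, 482 and 563 CPM at 0 days (0.67 ± 0.07, no overlap), and its change was already 0.64 at 1 day. In small intestine Aldoa (0.57 ± 0.04), Pgam1 (0.45 ± 0.04) and Ldha (0.29 ± 0.03) were each without overlap, and Aldoa had 436, 460 and 470 CPM at 12 weeks against 291, 309 and 321 CPM at 0 days. In eWAT Pgk1 had 164, 188 and 268 CPM at 12 weeks, against 103, 117 and 134 CPM at 0 days (0.76 ± 0.16). In soleus Pgam1 had 17.4, 25.6 and 32.5 CPM at 12 weeks, against 10.8, 14.2 and 17.7 CPM at 0 days (0.84 ± 0.23), with a slight overlap. In iWAT Aldoa had a change of 0.76 ± 0.47, with 2399 to 4112 CPM at 12 weeks and 815 to 4820 CPM at 0 days, and the groups overlapped.

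The 2 largest negative changes were those of Vegfa in eWAT and Pfkfb3 in BAT. Vegfa in eWAT had a lowest level of 57.3 CPM and a median of 88.3 CPM at 12 weeks, against 265, 338 and 421 CPM at 0 days, without overlap (-2.01 ± 0.21). Bnip3 in eWAT had 244, 297 and 366 CPM at 12 weeks, against 516, 629 and 749 CPM at 0 days (-1.08 ± 0.2). Both genes lay below 0 days without overlap at 8, 12, 16 and 20 weeks. Pfkfb3 in BAT had 330, 376 and 473 CPM at 12 weeks, against 884, 1018 and 1264 CPM at 0 days (-1.44 ± 0.21), whereas in neocortex it had 52.4, 54.2 and 57.3 CPM at 12 weeks against 33.2, 36.9 and 41.5 CPM at 0 days (0.55 ± 0.08). Egln3 had negative changes in all 3 fat depots, -1.02 ± 0.4 in iWAT, -0.86 ± 0.26 in BAT and -0.79 ± 0.31 in eWAT, and the groups overlapped in BAT. In muscle Pfkfb3 had a change of -1.22 ± 0.42 in gastrocnemius and of -0.84 ± 0.41 in soleus, with overlapping groups in both. Outside fat, all 6 libraries at 12 weeks lay below 0 days for Vegfa in pituitary (-0.41 ± 0.08) and liver (-0.28 ± 0.08) and for Aldoa in pancreas (-0.35 ± 0.12).

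The cell mixture of eWAT moved over the same time. At 12 weeks 12 of 12 macrophage genes had counts and summed to 5422 to 11553 CPM, against 1354 to 1997 CPM at 0 days. The sum of 12 adipocyte genes was 14243 to 24545 CPM at 12 weeks, against 35300 to 49722 CPM at 0 days, and that of 9 endothelial genes 379 to 811 CPM at 12 weeks, against 910 to 1555 CPM at 0 days. None of these markers was at 0. Their part in the changes of Vegfa, Bnip3, Pgk1 and P4ha1 was not tested.

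**Figure D3:**
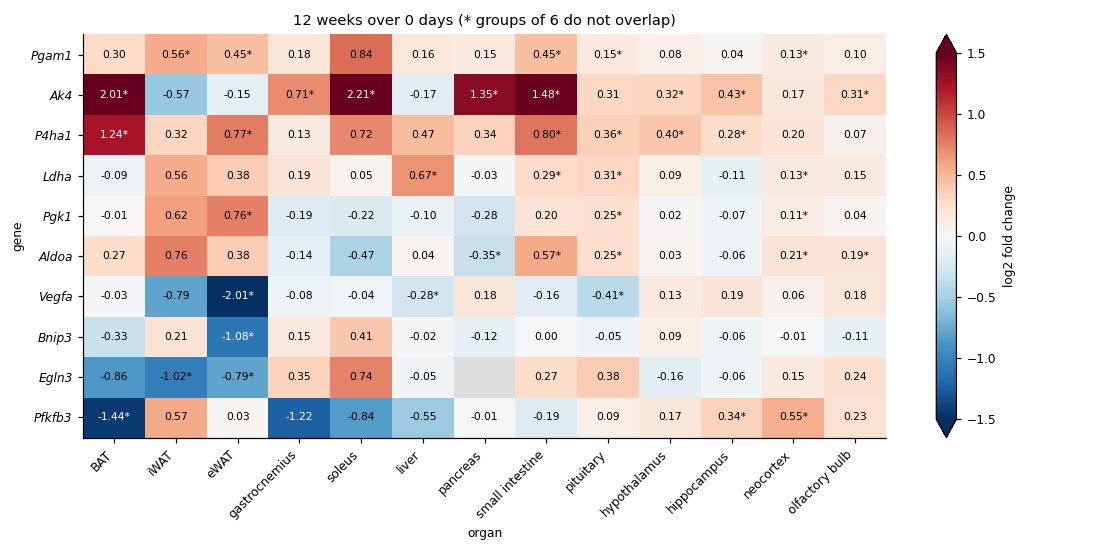
Log2 change at 12 weeks over 0 days for the 10 genes in 13 organs, with colour cut at ±1.5 and a star where the 2 groups of 6 libraries do not overlap (grey, not tested). Ak4 reaches 2.21 in soleus and 2.01 in BAT, and Vegfa -2.01 in eWAT.

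**Figure D4:**
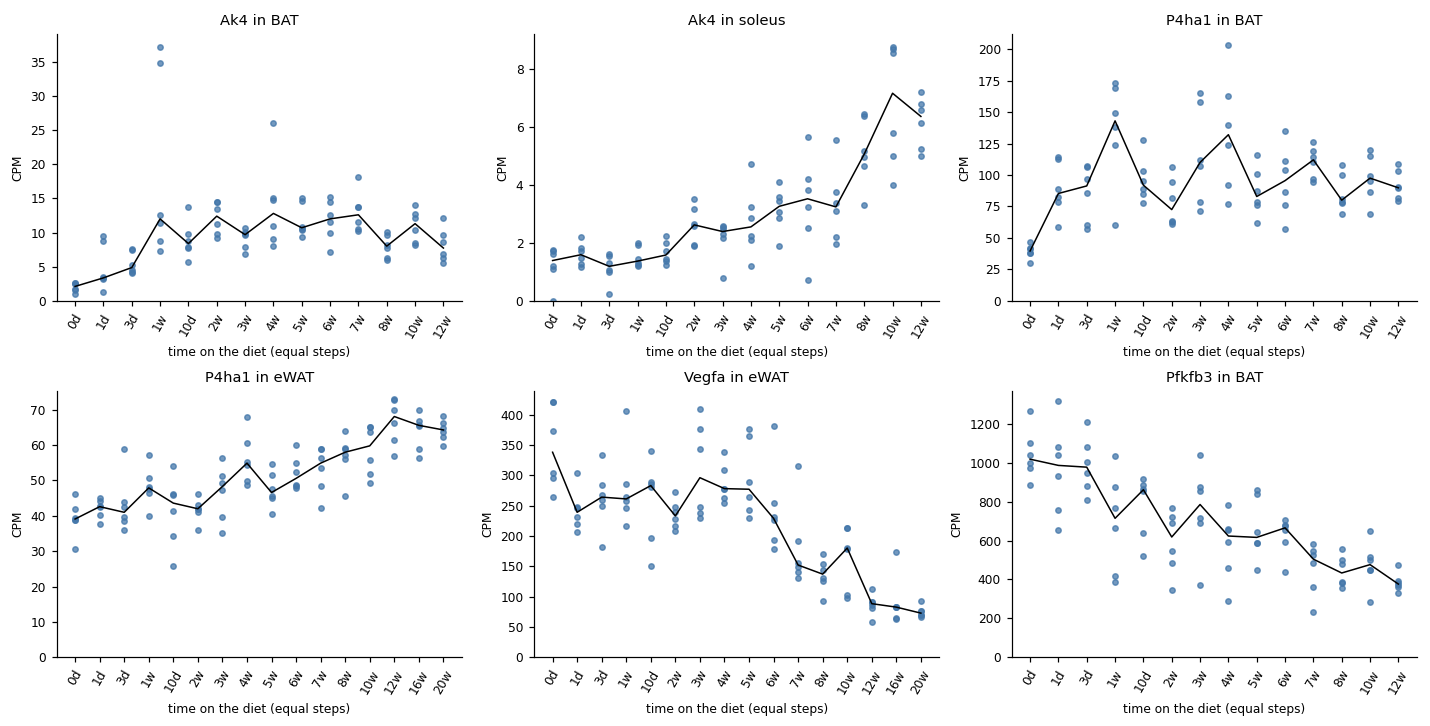
CPM of Ak4, P4ha1, Vegfa and Pfkfb3 in every library of BAT, soleus or eWAT by time on the diet, with equal steps between time points, 6 points per time and a line through the medians. Ak4 in BAT is high from 1 week, Ak4 in soleus climbs to 10 weeks, and Vegfa in eWAT is low from 8 weeks.

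The course between the ends was described by a slope on the log2 of days, fitted in each organ over the 72 libraries from 1 day to 10 weeks. The genes were chosen by their changes at all time points, so slopes, their differences between organs and the later times in eWAT are a description, and nothing is read from their counts against the background. A slope is called rising or falling below where edgeR's adjusted p was under 0.05, which sets its size against the spread between libraries. Of 129 slopes, 47 were rising and 15 falling (background 15.6% rising and 15.5% falling over the 13 organs). Slopes are given below as the fitted log2 change from 1 day to 10 weeks, ± SE. Ak4 and P4ha1 rose in 8 organs each and fell in 0, and Pgam1 rose in 7 and fell in 1.

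The rising slopes of Ak4 were 2.11 ± 0.23 in soleus, 1.03 ± 0.16 in pancreas, 0.87 ± 0.3 in BAT, and between 0.19 and 0.41 in the 4 brain regions and pituitary. With days in place of their log2 the slope of Ak4 in BAT was not among the rising ones. P4ha1 rose in soleus (0.62 ± 0.13), eWAT (0.45 ± 0.09), liver (0.39 ± 0.09), pituitary and the 4 brain regions (0.20 to 0.27). In soleus Pgam1 (0.90 ± 0.17) and Egln3 (1.02 ± 0.19) rose and Pfkfb3 fell (-0.95 ± 0.29), where 4.21% of all genes rose and 3.79% fell. In gastrocnemius 0 of 10 were rising or falling by edgeR, where 3.45% of all genes rose and 5.29% fell, and 4 had an unadjusted p under 0.05. This count depended on the setting: 1 was counted by DESeq2 (Bnip3, rising), 3 without the 4 libraries with a TMM factor under 0.75 (Bnip3 and P4ha1 rising and Pgk1 falling), and 4 with GC and length offsets.

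In the brain and pituitary most members rose by small amounts. The olfactory bulb had 9 of 10 rising (background 19.9%), the neocortex 7 (15.4%), the hypothalamus 7 (12%), the pituitary 7 (21.7%) and the hippocampus 5 (9.16%). The only falling slope among these 5 was Vegfa in pituitary (-0.34 ± 0.09), against backgrounds of falling genes of 18.6% in olfactory bulb, 15.1% in neocortex, 12.1% in hypothalamus, 21.3% in pituitary and 8.83% in hippocampus. Pfkfb3 in neocortex had the largest rise there, 0.64 ± 0.07. Aldoa rose by 0.29 ± 0.02 in olfactory bulb and 0.19 ± 0.02 in neocortex, and Ldha by 0.27 ± 0.03 and 0.17 ± 0.03 in the same regions.

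In eWAT 7 of 10 members fell and P4ha1 rose, where 26.9% of all genes fell and 25.1% rose. Egln3 (-0.83 ± 0.24), Bnip3 (-0.72 ± 0.22), Ldha (-0.71 ± 0.13), Aldoa (-0.50 ± 0.15), Vegfa (-0.47 ± 0.19), Pgk1 (-0.40 ± 0.13) and Pgam1 (-0.38 ± 0.11) fell. The changes of Ldha from 0 days were 0.87 at 1 day, 1.11 at 3 days and 0.40 at 10 weeks. Up to 12 weeks, changes from 0 days were positive at 13 of 13 time points for Ldha, Pgam1 and Aldoa, and at 12 for Pgk1. They were highest at 1 day for Pgam1 (0.81) and at 3 days for Aldoa (1.05) and Pgk1 (0.89). For Bnip3 6 of 13 were positive, for Egln3 1 and for Vegfa 0. Over the same slope 12 of 12 macrophage genes rose (median 1.32), 7 of 12 adipocyte genes fell and 2 rose (median -0.76), and 9 of 9 fast fibre genes fell (median -9.1). At 3 days the highest eWAT library had a fast fibre sum of 27837 CPM, against a median of 5.78 CPM for the 6. With the muscle genes as a covariate the same 7 members had falling slopes, and the part of the macrophage and adipocyte genes was not tested. With days in place of their log2, Pgam1, Pgk1 and Aldoa were not among the falling slopes in eWAT. In BAT Pfkfb3 fell by -1.1 ± 0.16 and Pgk1 by -0.21 ± 0.08, while Aldoa and Ak4 rose, Aldoa by 0.44 ± 0.12 (background 20.9% rising and 14.3% falling). In pancreas Ldha (-0.56 ± 0.14) and Pgk1 (-0.51 ± 0.1) fell and Ak4 and Vegfa (0.32 ± 0.09) rose, where 13.8% of all genes rose and 14.3% fell. In liver P4ha1 rose and Pgk1 fell (-0.16 ± 0.04), where 15% of all genes rose and 14.9% fell. In small intestine Aldoa (0.26 ± 0.03) and Pgam1 (0.14 ± 0.04) rose and 0 fell, where 19.6% of all genes rose and 19.7% fell. In iWAT Egln3 fell (-0.99 ± 0.29) and 0 rose, where 23.7% of all genes fell and 20.1% rose.

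**Figure D5:**
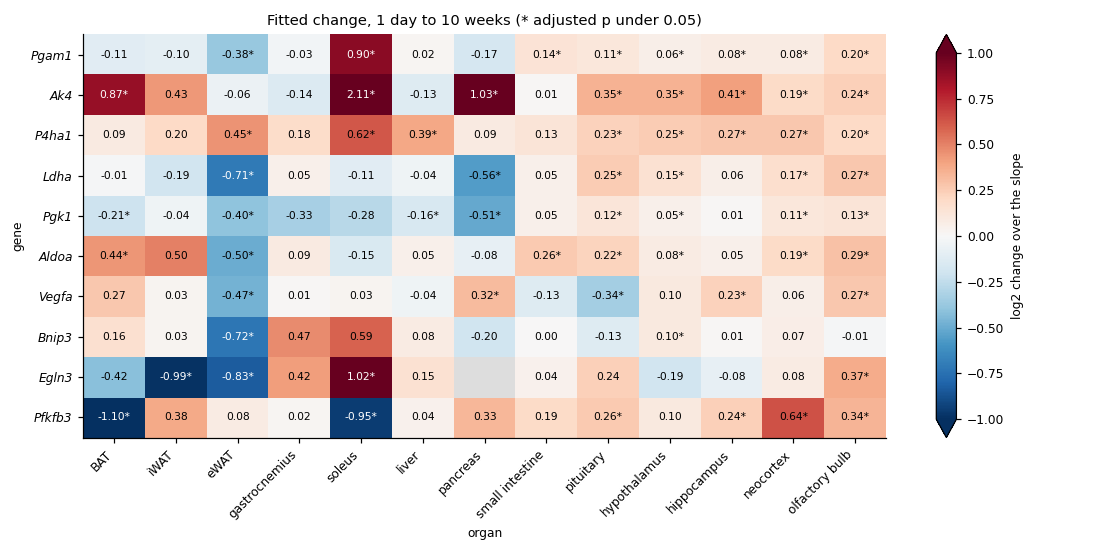
Fitted log2 change from 1 day to 10 weeks for the 10 genes in 13 organs, with colour cut at ±1 and a star where edgeR's adjusted p is under 0.05, as a description (grey, not fitted). The 4 brain regions and pituitary are mostly rising, eWAT has 7 falling slopes, and soleus holds the largest, 2.11 for Ak4.

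Differences between the slopes of like organs came from the interaction term of a joint fit, counted by the same threshold. Between gastrocnemius and soleus 2 of 10 slopes were counted (background 3.29% of genes). The slope of Ak4 in gastrocnemius minus that in soleus was -2.27 ± 0.28, and that of Pgam1 was -0.93 ± 0.2. Between eWAT and iWAT 1 of 10 was counted, Aldoa with -0.99 ± 0.35, against a background of 30.3%. With the muscle genes as a covariate in fat, added after seeing the data, 0 of 10 were counted. The fast fibre sum at 10 weeks was 12.9 to 20.1 CPM in eWAT and 2581 to 33055 CPM in iWAT.

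In eWAT, values at 20 weeks are set beside those at 10 weeks. By the same threshold 2 of the 10 members were higher at 20 weeks (background 6.31%) and 3 were lower (background 7.58%). Ak4 had 2.38, 3.25 and 4.17 CPM at 20 weeks, against 0.81, 1.23 and 2.29 CPM at 10 weeks, without overlap (log2 difference 1.26 ± 0.32). Egln3 had 3.78, 5.32 and 6.38 CPM at 20 weeks, against 1.4, 2.64 and 4.24 CPM at 10 weeks, with overlap (0.97 ± 0.31). The slope of this gene up to 10 weeks in eWAT was falling. Vegfa had 66.3, 72.7 and 92.8 CPM at 20 weeks, against 97.8, 180 and 213 CPM at 10 weeks, without overlap (-1.13 ± 0.2). Pfkfb3 had 390, 439 and 551 CPM at 20 weeks, against 623, 743 and 946 CPM at 10 weeks, without overlap (-0.7 ± 0.18), and Bnip3 was lower by -0.62 ± 0.2. Over the same step the macrophage sum was 6491 to 10349 CPM at 20 weeks and 3010 to 6926 CPM at 10 weeks, the adipocyte sum 15848 to 20771 CPM at 20 weeks and 20092 to 37561 CPM at 10 weeks, and the endothelial sum 448 to 694 CPM at 20 weeks and 751 to 1449 CPM at 10 weeks. Their part in these differences was not tested.

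Other genes of the same pathways, which are not members, were tested at 12 weeks against 0 days. The lists were chosen with earlier results of these data known. Their shares here and in the next paragraphs are therefore a description, not a separate test of the members. Over all genes and organs 14% of tests rose and 13.7% fell by edgeR with an adjusted p under 0.05. Of the 19 other glycolytic enzymes and lactate carriers, 25% of 232 tests rose and 11.2% fell, with a median log2 change of 0.03 against -0.01 for all genes. In small intestine 12 of 19 rose and 1 fell (background 19.8% and 19.1%), and in liver 11 of 17 rose and 1 fell (background 20.6% and 21.4%). In small intestine 9 of 12 macrophage genes and 7 of 9 endothelial genes also rose and 6 of 12 adipocyte genes fell, with 1 macrophage gene falling and 1 adipocyte gene rising, and in liver 6 of 9 adipocyte genes rose (median 1.28), and the part of these cells was not tested. In neocortex 9 of 18 rose and 0 fell (background 13.3% and 11.8%), while in hippocampus 0 rose and 7 of 18 fell (background 13.2% and 12.4%). The median log2 changes were small, 0.08 in neocortex and -0.08 in hippocampus. Pfkl, the liver-type phosphofructokinase, rose in 8 organs, by 1.42 ± 0.24 in soleus, 1.19 ± 0.06 in small intestine and 1.01 ± 0.1 in BAT. Pkm (pyruvate kinase M) and Tpi1 (triosephosphate isomerase) each rose in 6 organs and fell in hippocampus.

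The list of other HIF target genes held 27 symbols, of which 26 were tested in any organ. Of its 325 tests 22.8% rose and 10.5% fell, with a median of 0.09. Egln1, P4ha2, Plod2 and Pfkfb4 are also counted in the lists of the oxygen sensor, collagen processing or PFKFB isoforms below. In iWAT 14 of 26 rose and 2 fell (background 21.5% and 23.1%), in BAT 12 of 25 rose and 1 fell (background 14.4% and 13.2%), and in eWAT 10 of 26 rose and 9 fell (background 31% and 29.3%). In BAT 9 of 12 macrophage, 4 of 9 endothelial and 3 of 5 red cell genes also rose. Of 12 adipocyte genes there, 2 rose and 5 fell. In iWAT 4 of 12 macrophage, 1 of 9 endothelial and 4 of 5 red cell genes rose, and 2 of 12 adipocyte genes rose and 3 fell. The part of these cells was not tested. P4ha2, another isoform of the catalytic subunit that P4ha1 encodes, rose in 7 organs, by 1.35 ± 0.21 in BAT, and fell in pituitary (-0.47 ± 0.07). Tfrc, the transferrin receptor, rose in liver (1.1 ± 0.19), iWAT and small intestine and fell in 5 organs, among them neocortex (-0.56 ± 0.05). The 10 genes of the oxygen sensor had 15.7% of 127 tests rising and 14.2% falling. In eWAT 2 of 10 rose and 7 fell, with a median of -0.45, and in hippocampus 4 of 10 rose and 0 fell, beside the backgrounds of these organs given above. Hif1a rose in eWAT (1.1 ± 0.11) and iWAT (0.95 ± 0.15) and fell in 4 organs, Egln2 fell in eWAT (-0.75 ± 0.12) and Arnt2 in eWAT (-1.68 ± 0.48).

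Among the 13 genes of collagen hydroxylation and processing, 23.9% of 163 tests rose and 9.82% fell, with 7 of 13 rising in eWAT and 7 of 12 in iWAT, and 6 of 13 falling and 1 rising in pituitary (background 22.4% falling and 23.2% rising). The other adenylate kinases rose in 6.94% of 72 tests and fell in 15.3%. The 3 other PFKFB isoforms rose in 7.89% of 38 tests and fell in 21.1%, with Pfkfb2 falling in 5 organs. Of the 13 clock genes, 16.7% of 168 tests rose and 20.8% fell, with 3 rising and 10 falling in eWAT and 7 rising and 1 falling in neocortex. Dbp fell in 11 of 13 organs, by -2.62 ± 0.24 in eWAT, and the immediate early genes rose in 23.8% of 126 tests and fell in 3.97%. The hour of dissection is not given in the sources used here, and the part of these genes in the changes of the members was not tested.

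Between mice of the same group, only part of the genes moved together. Pearson's r was taken within each organ over the libraries' deviations from their group means (84 libraries, 96 in eWAT), as a description, since the points share libraries and depth. Of the 45 pairs of members 25 had a positive median r over the organs, and the median of the 45 was 0.03. The highest medians were between glycolytic enzymes, 0.64 for Pgk1 and Aldoa, 0.59 for Pgk1 and Ldha and 0.55 for Ldha and Aldoa, and the lowest was -0.29 for Egln3 and Pfkfb3. Pgk1 and Aldoa had r between 0.06 in olfactory bulb and 0.91 in iWAT. Aldoa was at 12278 to 24835 CPM in the 14 soleus libraries with TMM factors under 0.75, and at 2790 to 12042 CPM in the other 70, while Ldha was at 1554 to 3606 CPM in the 14 and at 487 to 1494 CPM in the other 70. Fast fibre RNA also varied widely between iWAT libraries, as given above. The part of the soleus libraries and of the muscle RNA in r was not tested.

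Among 10824 genes tested in all 13 organs, the 5 most like P4ha1 by median r were Hsph1 (0.58), Hsp90b1 (0.57), Hspa5 (0.55), Hsp90aa1 (0.49) and Chordc1 (0.47). Among those most like Pgk1 were Atp5b (0.76), Mdh1 (0.73), Slc25a5 (0.73) and Cycs (0.67). For Pgam1 they were Ppp2r1a (0.51), Atp5b (0.49), Ndfip1 (0.47), Eno1 (0.47) and Tkt (0.47), with Eno1 the next enzyme of glycolysis. For Ak4 the highest were lower, with Adar (0.34), Tspyl4 (0.34), Ssx2ip (0.33), Mapt (0.33) and Flywch1 (0.32), and r for Adar ran from -0.48 to 0.59 over the organs. Fam57b, which overlaps Aldoa on the other strand, had a median r of 0.79 with it.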

How the data were processed

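Poly(A) RNA was made into strand-specific libraries, per the labels' protocols. The authors deposited raw counts for each gene symbol, whole numbers that differ in total between libraries. The submitters' processing notes name HISAT2 2.1.0 as well as featureCounts 1.6.3, FastQC 0.11.7, SAMtools 1.9 and Trimmomatic 0.38, and build GRCm38 (mm10). Neither an annotation nor a strand setting is given in the sources used here. Reads of near-identical copies may be shared or lost.

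Samples were grouped by organ and time from their titles. Members and lists were chosen with earlier results of these data known. Counts were tested with edgeR 4.0.16 in R 4.3.3 (filterByExpr, TMM, quasi-likelihood, Benjamini-Hochberg over all genes, threshold 0.05), with a coefficient for each time point and all libraries of an organ in the fit. The pairs of organs at 0 days were fitted on their 12 libraries alone, and slope differences on the 144 libraries of both organs. CPM use TMM library sizes. Slopes used log2 of days from 1 to 70. The choice of members used all time points, so their slopes and later times, planned as tests, are given as a description. DESeq2 1.42.0, RLE factors, no filter on low counts, a replicate block, leaving out the least correlated library of each group, GC and length offsets, days in place of log2 days and fits of 2 groups were alternatives. Leaving out libraries with a TMM factor under 0.75 and a muscle gene covariate in fat were chosen after seeing the data. The labels do not say whether organs share mice, so p-values measure the spread between these samples. The scripts were tested on simulated data. All 10 members are named, and of each other list the 3 genes called in most organs at 12 weeks, and in other comparisons the 3 with the smallest p, of which the text gives a part. Some genes that this rule names are not reported here. In each organ counts differed beyond sampling noise between libraries of a group (lowest chi-square per degree of freedom 2.109). At 1 CPM the median library has about 13.5 counts, so low genes carry more counting error.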

Additional observations from a re-analysis of the deposited data

Results flagged for a closer look

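Of 96 groups of 6 libraries whose values are printed above, 6 held a library whose gap to the nearest of the others, over the group's range, was above Dixon's 95% critical value, where chance gives about 1 in 20. The same iWAT library of Aldoa is counted on 2 scales among the 6. In soleus at 0 days Ak4 was at 0 CPM in its lowest library, against 1.11 to 1.74 CPM in the others. In pancreas at 0 days the lowest library had 1.41 CPM of Ak4, against 2.48 to 3.05 CPM. In iWAT at 0 days the highest library had 4820 CPM of Aldoa, against 815 to 1968 CPM, which is 3615 CPM, against 615 to 1437 CPM, on the scale common to all organs, and on that scale 528 CPM of Bnip3, against 270 to 334 CPM. In eWAT at 20 weeks the highest library had 92.8 CPM of Vegfa, against 66.3 to 75.9 CPM.

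The slopes of Ak4 (-2.27 ± 0.28) and Pgam1 (-0.93 ± 0.2) in gastrocnemius minus soleus and that of Aldoa (-0.99 ± 0.35) in eWAT minus iWAT, as log2 change from 1 day to 10 weeks, stood out by the interaction term of edgeR's fit. Over all genes 3.29% of slopes differed between the muscles and 30.3% between eWAT and iWAT. With the muscle gene covariate 0 members were counted between eWAT and iWAT. The choice of genes used all time points, so the slope differences of the members are a description.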

How the results depend on the processing

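No call of a member changed its direction under the alternatives run. Of the described changes at 12 weeks, those of Aldoa (-0.02) and Bnip3 (-0.05) in iWAT with the muscle gene covariate and of Aldoa in liver (-0.19) and Bnip3 in gastrocnemius (-0.06) with GC and length offsets turned from positive to negative, among 13 turns of sign in all. In hippocampus those of Ldha (0.01), Pgk1 (0.05), Aldoa (0.06), Bnip3 (0.07) and Egln3 (0.02) turned from negative to positive with GC and length offsets. These offsets moved 32 of 129 such changes by more than 1 SE, the covariate 3 of 30, RLE factors 0 of 129 and leaving out libraries with a TMM factor under 0.75, 0 of 59. Members lower in eWAT at 20 weeks than at 10 weeks numbered 5 in place of 3 when only the 2 groups were fitted. Slopes that differ between eWAT and iWAT numbered 2 without the least correlated library of each group, 3 with GC and length offsets, 4 with days in place of their log2 and 0 with the muscle gene covariate, in place of 1. Other glycolytic enzymes that fell at 12 weeks numbered 15 with GC and length offsets, in place of 26. Slopes called rising numbered 48 by DESeq2, 49 with days in place of their log2, 50 without libraries with a TMM factor under 0.75 and 51 with GC and length offsets, in place of 47. Slopes called falling numbered 12 with days in place of their log2 and 21 with GC and length offsets, in place of 15. Replicate numbers do not come with a shared animal in the labels. Deviations from the group means were correlated over genes between libraries of equal number. The median r was 0.365 (-0.025 to 0.659) for BAT and iWAT at 0 days, and 0.0086 (-0.0235 to 0.126) for gastrocnemius and soleus. Comparisons of 2 time points of an organ hold different mice and cannot show a shared animal. Whether organs share mice was not settled, and the main fits do not pair them. With a replicate block 47 slopes rose and 15 fell, and 9 members were again higher in BAT than in iWAT. In the same setting 4 in place of 5 members were higher in gastrocnemius than in soleus, with Ak4 at an edgeR adjusted p of 0.053. The block also ended the call of the slope of Ak4 in olfactory bulb and no other single call of the 87. Calls of single members that no longer passed numbered 13 of 65 with days in place of their log2, 4 of 87 with GC and length offsets, 3 of 87 without the least correlated libraries and 1 of 87 with no filter on low counts. The causes were not tested. With library totals in place of TMM factors, 101 of 130 levels by organ moved by more than 1 SD, and the highest organ for Bnip3 was eWAT in place of soleus. Low levels, such as Ak4 in small intestine and Egln3 in pancreas, are limited by depth.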
